A study of Mus musculus with 6 samples.

Results

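Histone genes were followed in myeloid cells of the mouse spleen, with the genes of the histone clusters set apart from those of the histone variants. The members were chosen by name: every probe set whose listed genes carry a RefSeq name, current or older, that begins with Hist1h, Hist2h, Hist3h, Hist4h, H2af, H3f3, H1f0 or H1fx. The older names were needed because the platform annotation uses newer symbols, under which these letters alone would match 9 probe sets. With the older names the rule gave 77 of 35556 probe sets. Of these, 44 listed 1 gene and gave 42 genes, 31 of the clusters and 11 variants. The other 33 listed several genes and were kept apart. RefSeq holds 89 genes under these names, of which 39 were seen on shared probe sets only and 8 had no probe set in the annotation, H1f0 among them. In all, 81 genes were seen on at least 1 probe set.

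Histones are the proteins around which DNA is wound. The core histones H2A, H2B, H3 and H4 form the nucleosome, and the linker histone H1 sits where the DNA enters and leaves it. The replication-dependent genes lie in clusters, have no introns, and are transcribed in S phase. Their mRNAs end in a stem-loop that the protein SLBP binds, in place of a poly(A) tail. Variants such as H2A.Z and the H3f3 histones are made through the whole cell cycle from genes that lie alone, and their mRNAs carry poly(A) tails. The labels name a whole-transcript labelling assay, which as a method does not depend on a poly(A) tail.

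The recipients were lethally irradiated B6D2F1/J mice given B6 bone marrow without T cells. Grafts came with or without B6 spleen cells, and the labels do not tell which mice got them. PBS or rapamycin, an inhibitor of the kinase mTOR, was injected into the peritoneum on alternate days, the latter at 1.5 mg/kg. On day 10, spleen cells were sorted on CD11b with magnetic beads, and the labels call them myeloid-derived suppressor cells. Each group held 3 mice with 1 array each, and ages are not given in the labels. Their number limits the precision of every value. Values are log2 expression values, and a change is the rapamycin mean minus the PBS mean. Calls were made where limma's adjusted p was under 0.05.

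All 12 myeloid markers were measured, with means over the list between 11.2 and 11.3 on the PBS arrays and between 11.3 and 11.5 on the rapamycin arrays. Of these, Cd14 and Cd68 rose and Ccr2 fell. Over all 13965 genes tested, 4.42% were called higher and 6.92% lower. At an unadjusted p under 0.05, limma gave 1578 of them higher and 2363 lower. Of 12 tested markers of T and NK cells 3 fell, and the list's mean log2 value lay between 5.64 and 5.74 with PBS and between 5.41 and 5.50 with rapamycin. Of 7 tested erythroid markers Slc4a1 rose, with list means of 5.26 to 5.31 and 5.40 to 5.50. Of 5 tested markers of B and plasma cells Cd79b fell, with list means of 5.32 to 5.34 and 5.20 to 5.36. None of 7 progenitor markers passed limma's test (at an unadjusted p under 0.05, 1 was higher and 1 lower), with list means of 8.66 to 8.77 and 8.45 to 8.87. None of 2 markers of megakaryocytes and platelets passed it, with 0 at an unadjusted p under 0.05 and list means of 5.22 to 5.28 and 5.22 to 5.27. With an array left out, Cd14 was called each time, Ccr2 never, Cd68 and Slc4a1 each time but without PBS replicate 2, and Cd79b only without rapamycin replicate 2 or 3. In such fits 1 T cell marker was called without PBS replicate 1, 2 without rapamycin replicate 3 and 0 otherwise, and without rapamycin replicate 2 Alas2 of the erythroid list was called higher. Ctsg of the progenitor list was called lower without rapamycin replicate 3. The part of these cells in the histone values was not tested, and fewer cells of a type cannot be told apart from less RNA per cell.

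The largest called histone differences were those of the variants H3f3b and H2az1. H3f3b, 1 of the genes that encode the replication-independent H3, was lower with rapamycin on both of its probe sets, by 1.36-fold and 1.27-fold in size on the log2 changes given below. H2az1, which encodes the main form of H2A.Z, was 1.22-fold lower. It was the 1 called of 10 tested variants with a probe set of their own, whose median log2 change was -0.015. None of the 28 tested cluster genes with a probe set of their own passed limma's test, and their median log2 change was -0.025. Over all genes 4.42% were called higher and 6.92% lower, at a median of -0.017. Probe sets that 12 cluster H3 genes share stood 0.17 to 0.20 lower on the log2 scale, at the edge of the threshold.

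Among cluster genes, 3 of 31 were set aside as too dim, with a mean below log2 4.72, the 30th percentile of probe sets with 1 gene. Of the 28 tested, 0 were called higher, where 4.42% of 13965 genes were, and 0 lower, where 6.92% were. At an unadjusted p under 0.05, limma gave 3 higher and 3 lower, where 1578 and 2363 of 13965 genes were. The log2 changes ran from -0.18 to 0.19, and 16 of 28 were below 0, beside 55.6% of all genes. The groups did not overlap for 4 higher and 4 lower members, against 32% of all genes. Of the 11 variants 10 were tested, with 0 called higher and 1 lower, a median of -0.015 and changes from -0.29 to 0.16, 6 of them below 0. The median over all genes was -0.017. Of all called genes 61% were lower, 71% with array medians aligned, 68.8% after quantile normalization again and 44.7% with the tested genes' medians aligned. With each gene set to its PBS mean, the median over cluster genes was 0.029, -0.0010 and -0.0080 on the PBS arrays and -0.045, -0.018 and -0.0087 on the rapamycin arrays. The rapamycin medians all lay below the PBS medians, the nearest by less than 0.001, and so did those over all genes, at -0.018, -0.0068 and -0.015 against -0.0036, 0 and 0.0038. The medians over variants overlapped between the groups. The plot of log2 changes by gene shows both classes on both sides of the median of all genes, with H2az1 lower than every cluster gene.

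**Figure D1:**
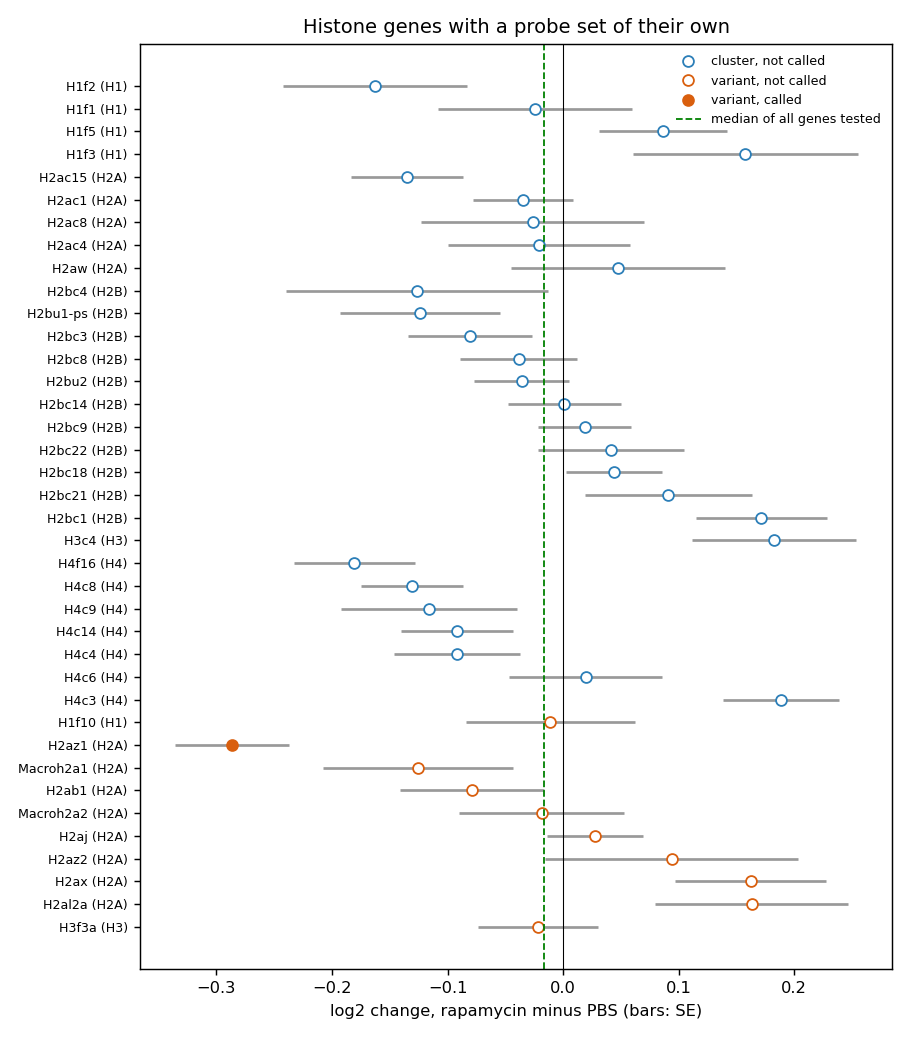
Log2 change between rapamycin and PBS (x axis) with limma's standard error for the 38 tested histone genes that have a probe set of their own, ordered by class and family. H2az1 is the 1 filled point at -0.29, and the 28 cluster genes lie between -0.18 and 0.19 on both sides of the median of all genes.

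H2az1 is taken up into nucleosomes at promoters and is expressed throughout the cell cycle. On probe set 10540999 it stood at 12.199, 12.224 and 12.274 on the PBS arrays and at 11.882, 11.952 and 12.002 on the rapamycin arrays (log2). All rapamycin values lay below all PBS values. The change was -0.29 ± 0.05 (SE), with limma's adjusted p of 0.0168. Its other probe set, 10496379, gave 11.75, 11.82 and 11.80 with PBS and 11.51, 11.59 and 11.63 with rapamycin, a change of -0.22 ± 0.05. In the fit of probe sets limma's adjusted p for it was 0.0462. The groups were thus apart on both. With PBS replicate 2 left out limma's adjusted p for H2az1 was 0.0693, with PBS replicate 3 left out 0.0617, and with rapamycin replicate 1 left out 0.0602, all past the threshold. The changes in these fits were -0.29, -0.27 and -0.25.

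H3f3b has no probe set of its own here. Both of its probe sets also list Gm6485, which RefSeq names a transcribed pseudogene, so that signal from either cannot be told apart. Probe set 10500896 gave 11.30, 11.34 and 11.18 on the PBS arrays and 10.73, 10.88 and 10.87 on the rapamycin arrays. Its change was -0.45 ± 0.07 (SE), with limma's adjusted p of 0.0136. Probe set 10393058 stood at 11.64, 11.68 and 11.68 with PBS and at 11.21, 11.38 and 11.37 with rapamycin, a change of -0.35 ± 0.06 (limma adjusted p 0.0187). Rapamycin replicate 1 was the lowest array on both, and the groups did not overlap. Over all 23077 probe sets tested, 5.47% were called lower. The call on 10500896 was lost without PBS replicate 2 (adjusted p 0.0558). That on 10393058 needed all 3 PBS arrays: leaving out replicate 1, 2 or 3 gave 0.0528, 0.0697 or 0.0625.

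H3f3a encodes the same protein as H3f3b. Its single-gene probe set stood at 5.40, 5.31 and 5.47 with PBS and at 5.37 on each rapamycin array. Its change was -0.02 ± 0.05. The 4 probe sets that list H3f3a with Gm12657, which RefSeq holds as protein-coding, gave changes of -0.12, -0.03, -0.14 and -0.12, none of them called (limma adjusted p 0.112 to 0.661). At an unadjusted p under 0.05, 2 of these 4 were lower, where 3263 of 23077 probe sets were. After quantile normalization again, 2 of the 4 were called lower, and the median of the 4 was -0.22. Of the 4, 10412378 stood at 11.59, 11.65 and 11.68 with PBS and at 11.46, 11.53 and 11.52 with rapamycin, with no overlap.

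Other H2A variants did not pass the test. H2ax, which is phosphorylated at DNA breaks, stood at 9.10, 9.02 and 8.97 with PBS and at 9.31, 9.11 and 9.15 with rapamycin. Every rapamycin value was above every PBS value, and the change of 0.16 ± 0.07 (SE) had limma's adjusted p of 0.156. H2az2, the other H2A.Z gene, stood at 8.40, 8.64 and 8.65 with PBS and at 8.67, 8.46 and 8.84 with rapamycin. Its groups overlapped, at a change of 0.09 ± 0.11. Macroh2a1, a variant with a large additional macrodomain, stood at 10.40, 10.24 and 10.20 with PBS and at 10.30, 10.06 and 10.10 with rapamycin, a change of -0.13 ± 0.08 with overlapping groups. The related Macroh2a2 gave 5.79, 5.83 and 5.98 with PBS and 5.74, 5.92 and 5.89 with rapamycin (-0.02 ± 0.07).

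H2aj, an H2A close to the cluster forms, gave 7.462, 7.462 and 7.417 with PBS and 7.500, 7.462 and 7.462 with rapamycin, a change of 0.03 ± 0.04. H2al2a and H2ab1 encode short H2A forms known from the testis. H2al2a stood at 5.52, 5.60 and 5.43 with PBS and at 5.83, 5.53 and 5.68 with rapamycin (0.16 ± 0.08, overlapping). H2ab1, whose probe sets 10601553 and 10606552 hold the same values, gave 5.03, 5.07 and 5.21 with PBS and 5.07, 5.05 and 4.95 with rapamycin (-0.08 ± 0.06). H1f10, a linker variant, gave 5.60, 5.69 and 5.79 with PBS and 5.58, 5.80 and 5.67 with rapamycin (-0.01 ± 0.07). The pseudogene Macroh2a3 was set aside as dim, at 4.71 ± 0.02 and 4.63 ± 0.03 (SD, n = 3 each).

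Differences between members were compared array by array with 4 exact permutation tests, 2-sided, in which 3 mice against 3 cannot give a p below 0.1. The log2 value of H2az1 minus that of H2az2 went from 3.67 ± 0.12 with PBS to 3.29 ± 0.18 with rapamycin (SD, n = 3 each), a shift of -0.38 with an exact p of 0.1. H2az1 minus H2ax shifted by -0.45, from 3.20 ± 0.10 to 2.75 ± 0.16. The mean of the H3f3b probe sets minus that of the shared H3f3a sets shifted by -0.30, and minus that of the shared cluster H3 sets by -0.21. The groups did not overlap in any of the 4, each had the exact p of 0.1, and 0.1 after Benjamini-Hochberg adjustment over the 4. Each contrast starts from a gene called lower on these same arrays, H2az1 or H3f3b. Its shift is therefore no separate support for that call.

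**Figure D2:**
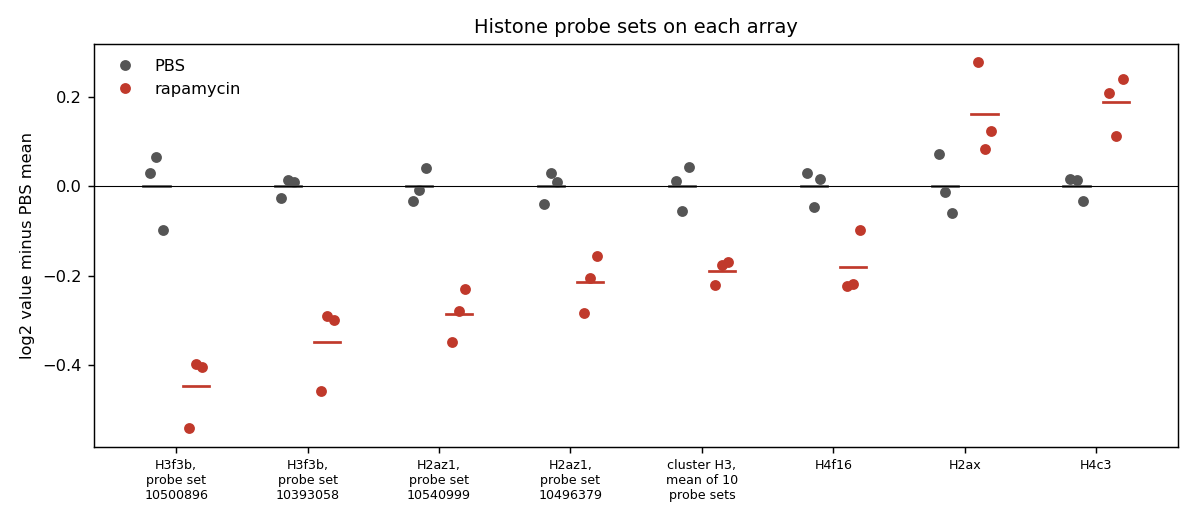
Log2 value minus the PBS mean of the same probe set (y axis) on each of the 6 arrays, for probe sets of H3f3b and H2az1, the mean of 10 shared cluster H3 probe sets, and H4f16, H2ax and H4c3. Bars are group means. The rapamycin arrays lie below the PBS arrays for the first 6 items and above them for H2ax and H4c3.

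Promoters of cluster genes and of variants were compared by the letters of 3 motifs. The 250 bases before the RefSeq start are shown for H2az1 and H3f3b, called lower, and for H2bc14 and H4c3, which were not called and stand for an H2B and an H4 gene of the cluster. H4c3 was chosen after its values were seen. All are from the RefSeq promoter table for GRCm38.p6 and run 5′ to 3′ along the gene's strand. Capitals mark the TATA box TATAAA, the CCAAT box CCAAT and the octamer ATTTGCAT, each searched on both strands. No promoter of these 4 has 1 of these motifs overlapping another.
H2az1, chr3:137864237-137864486, plus strand: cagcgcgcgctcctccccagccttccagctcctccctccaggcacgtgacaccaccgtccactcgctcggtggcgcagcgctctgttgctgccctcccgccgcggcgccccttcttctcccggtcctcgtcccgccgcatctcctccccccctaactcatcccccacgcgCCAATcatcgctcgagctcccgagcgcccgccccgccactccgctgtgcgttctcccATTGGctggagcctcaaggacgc
H3f3b, chr11:116024505-116024754, minus strand: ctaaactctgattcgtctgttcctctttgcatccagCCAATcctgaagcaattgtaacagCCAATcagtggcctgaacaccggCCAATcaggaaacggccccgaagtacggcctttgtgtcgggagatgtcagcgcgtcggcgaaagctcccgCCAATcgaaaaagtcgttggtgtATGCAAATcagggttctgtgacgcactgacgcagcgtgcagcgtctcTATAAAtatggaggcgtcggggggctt
H2bc14, chr13:21721794-21722043, plus strand: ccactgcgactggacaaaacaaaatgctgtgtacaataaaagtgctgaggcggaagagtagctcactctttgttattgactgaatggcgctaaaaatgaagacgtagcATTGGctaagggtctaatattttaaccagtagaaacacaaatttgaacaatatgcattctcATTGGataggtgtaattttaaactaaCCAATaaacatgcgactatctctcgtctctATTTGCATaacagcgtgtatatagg
H4c3, chr13:23698459-23698708, minus strand: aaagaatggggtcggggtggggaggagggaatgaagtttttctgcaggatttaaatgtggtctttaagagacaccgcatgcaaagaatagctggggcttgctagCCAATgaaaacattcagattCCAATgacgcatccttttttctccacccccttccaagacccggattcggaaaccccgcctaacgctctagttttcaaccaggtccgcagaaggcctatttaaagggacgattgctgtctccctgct

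H2az1 held 2 CCAAT boxes and neither of the other motifs in this window. H3f3b held 4 CCAAT boxes, 1 octamer 74 to 67 bases before the start and 1 TATA box 27 to 22 bases before it. H2bc14 held 3 CCAAT boxes and 1 octamer 25 to 18 bases before the start, and H4c3 held 2 CCAAT boxes. Among 62 cluster genes with a promoter in the table, 46.8% had the TATA box, against 7.14% of 14 variants and 13% of all 27025 genes. Pseudogenes were left out of the histone groups, a filter that was not applied to all genes. The CCAAT box was present in 82.3% of cluster genes, 57.1% of variants and 34.5% of all genes. All 18 H2A and all 16 H2B genes of the clusters had it, and 25.0% of 12 H4 genes. The octamer stood in 38.9% of the H2A and 37.5% of the H2B genes, in 0 of 10 H3, 12 H4 and 6 H1 genes, and in 1.61% of all genes. A match says only that these letters are present.

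**Figure D3:**
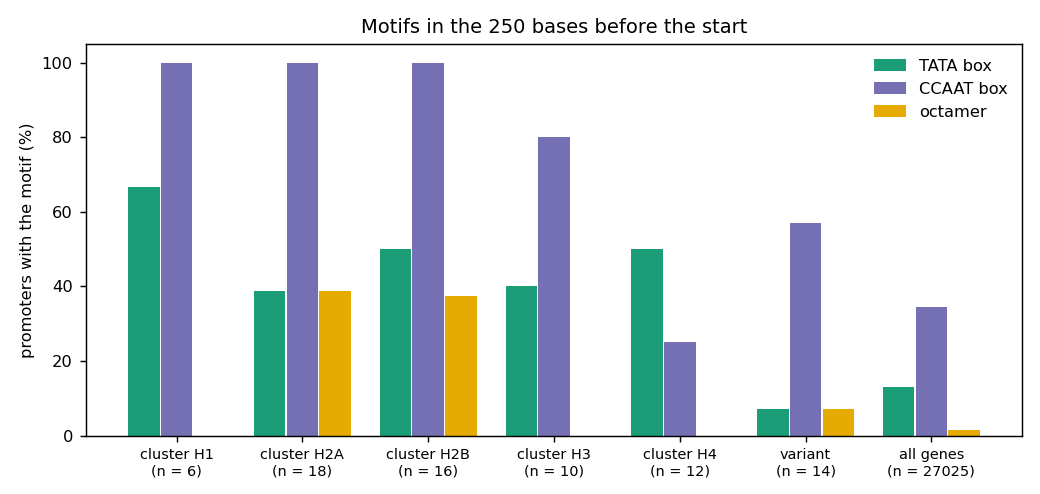
Share of promoters (y axis, percent) that hold the TATA box, CCAAT box or octamer in the 250 bases before the start, for cluster genes by family, for variants and for all genes of the RefSeq table, with the number of genes below each group. The CCAAT box reaches 100% in the H1, H2A and H2B genes, and the octamer occurs in the H2A and H2B genes and in 1 variant, H3f3b.

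The 7 tested H4 genes of the clusters lay on both sides of 0, at a median change of -0.092, and none was called by limma. With 1 higher and 2 lower at an unadjusted p under 0.05, they stood beside 1578 and 2363 of 13965 genes. H4c3 stood at 10.50, 10.50 and 10.45 with PBS and at 10.69, 10.60 and 10.72 with rapamycin. All rapamycin values were higher, and the change of 0.19 ± 0.05 (SE) had limma's adjusted p of 0.0539. H4f16, on chromosome 6, was counted with the cluster genes by its older name, Hist4h4. It stood at 10.20, 10.12 and 10.18 with PBS and at 9.94, 9.95 and 10.07 with rapamycin. It lay lower on every rapamycin array, at -0.18 ± 0.05 and an adjusted p of 0.0700. H4c4 gave 12.83, 12.82 and 12.90 with PBS and 12.67, 12.80 and 12.81 with rapamycin, and H4c14 12.21, 12.25 and 12.27 against 12.09, 12.21 and 12.15. Both changed by -0.09 ± 0.05, H4c4 without overlap and H4c14 with overlap. H4c8 was at -0.13, H4c9 at -0.12 and H4c6 at 0.02. H4c3 was called with the stricter brightness filter (adjusted p 0.0423), with an intensity trend (0.0417), with array weights (0.0482) and with the tested genes' medians aligned (0.0294). H4f16 was called with the array medians aligned (0.0432), after quantile normalization again (0.0374) and without rapamycin replicate 3 (0.0428).

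H3c4 was the 1 cluster H3 gene bright enough to be tested on a probe set of its own. It stood at 6.19, 6.20 and 6.01 with PBS and at 6.37, 6.22 and 6.35 with rapamycin, higher on every rapamycin array, at 0.18 ± 0.07 (SE) and limma's adjusted p of 0.143. H3c15 and H3c7 were set aside as dim, at 4.16 ± 0.15 and 3.86 ± 0.09, and at 3.60 ± 0.17 and 3.53 ± 0.06 (SD, n = 3 each).

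Among the H2A genes, H2ac15 stood at 10.80, 10.75 and 10.67 with PBS and at 10.60, 10.61 and 10.61 with rapamycin. It was lower on all rapamycin arrays, at -0.13 ± 0.05 (SE) and limma's adjusted p of 0.117, and was called after quantile normalization again (-0.19, adjusted p 0.0356). H2ac4 gave 11.25, 11.19 and 11.02 with PBS and 11.24, 11.02 and 11.13 with rapamycin, and its groups overlapped (-0.02 ± 0.08). H2ac1, a histone of the male germ line, was at -0.03, H2ac8 at -0.03 and H2aw at 0.05.

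Of 11 tested H2B genes none was called by limma, and 1 was higher at an unadjusted p under 0.05, where 1578 of 13965 genes were. H2bc14 gave 10.93, 10.91 and 10.95 with PBS and 10.87, 10.94 and 10.99 with rapamycin, a change of 0.00 ± 0.05 (SE). H2bc18, on chromosome 3, gave 9.98, 9.98 and 9.95 with PBS and 9.99, 10.04 and 10.01 with rapamycin, at 0.04 ± 0.04. Its groups did not overlap, by a margin of less than 0.01. H2bc1, the germ-line H2B, gave the largest H2B change, 0.17 ± 0.06 (limma adjusted p 0.0977). The others ran from H2bc4 at -0.13 and the transcribed pseudogene H2bu1-ps at -0.12 to H2bc21 at 0.09.

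The linker histone genes of the cluster lay on both sides of 0. H1f1 gave 9.99, 9.98 and 9.86 with PBS and 9.89, 9.79 and 10.09 with rapamycin, with overlap and a change of -0.02 ± 0.08 (SE). H1f5 gave 9.79, 9.79 and 9.71 with PBS and 9.82, 9.79 and 9.94 with rapamycin, at 0.09 ± 0.06. H1f2 was at -0.16 ± 0.08 and H1f3 at 0.16 ± 0.10, with overlapping groups. H1f6, the linker histone of the testis, was set aside as dim at 4.22 ± 0.02 and 4.06 ± 0.16 (SD, n = 3 each). By position, the 21 tested cluster genes on chromosome 13 had a median change of -0.024, the 3 on chromosome 3 one of 0.044 and the 3 on chromosome 11 one of -0.036.

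Cluster histone genes have near-identical copies, and a shared probe set cannot tell them apart. All 33 shared sets passed the brightness threshold, and they list 11 combinations of genes. Of the 33, 7 were called lower, where 5.47% of probe sets were, and 0 higher, where 6.76% were. At an unadjusted p under 0.05, 15 were lower and 0 higher, where 3263 and 3702 of 23077 probe sets were. The 7 were the 2 probe sets of H3f3b and 5 of 10 that list the same 12 cluster H3 genes. The groups lay apart for 26, all lower, where 35% of probe sets lay apart and 17.1% lay apart and lower, and 31 had a change below 0, where 49.9% did. On every array 2 of the H2B sets hold the same values, as do 2 of the H4 sets, so these counts are not of separate genes. With 1 mean per combination, an alternative chosen after seeing the data, 1 of 11 was called, that of H3f3b.

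The 10 shared H3 sets gave changes between -0.20 and -0.17, and adjusted p between 0.0420 and 0.0696 with limma. Their mean stood at 13.41, 13.35 and 13.44 on the PBS arrays and at 13.18, 13.22 and 13.23 on the rapamycin arrays. All rapamycin values were lower, at a change of -0.19 ± 0.05 (SE) with an adjusted p of 0.0511 in limma's fit with 1 mean per combination. Probe set 10494402, the lowest in p, gave 13.32, 13.25 and 13.34 with PBS and 13.11, 13.10 and 13.12 with rapamycin. Its change was -0.19 ± 0.04. Probe set 10408202 gave 13.34, 13.30 and 13.40 with PBS and 13.11, 13.16 and 13.17 with rapamycin, at -0.20 ± 0.05 and an adjusted p of 0.0457 with limma. Probe set 10404049 gave 13.45, 13.40 and 13.50 with PBS and 13.21, 13.27 and 13.27 with rapamycin (limma adjusted p 0.0469). In 10494405 the values were 13.47, 13.40 and 13.49 with PBS and 13.23, 13.27 and 13.28 with rapamycin (limma adjusted p 0.0480). The other one called, 10404028, gave 13.42, 13.33 and 13.43 with PBS and 13.18, 13.20 and 13.23 with rapamycin, at -0.19. The groups did not overlap on any of the 10. With any 1 array left out, after quantile normalization again, and with the tested genes' medians aligned, 0 of the 10 were called. Without a brightness filter 1 was called, with array weights 2, with the 50th percentile filter 8, and with the array medians aligned or an intensity trend all 10. The 1 cluster H3 gene tested alone, H3c4, stood at 0.18, opposite in sign to the shared sets that also list it. It was not called (limma adjusted p 0.143). Its own probe set read 6.01 to 6.37 over the 6 arrays, against 13.10 to 13.52 for the 10 shared sets, so these were not measured at like levels.

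On the deposited values, the shared sets of the other core histones changed less. The 5 sets of 11 H4 genes had a median change of -0.069, the 4 sets of 15 H2B genes one of -0.076 and the 3 sets of 14 H2B genes one of -0.082. The 2 sets that list 20 and 19 genes, H2A genes with H2ax and H3c4, were at -0.03 and -0.01. Of these 14 probe sets 0 were called by limma, and 1 H2B set was lower at an unadjusted p under 0.05. The set shared by H2bc6 and H1f4 was at -0.05, that of H2aw and Trim17 at 0.07 and that of H4c17 and H4c11 at 0.08.

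Such bright probe sets have their own background. Of 331 tested probe sets with a mean log2 value from 12 to 13, 24.2% were below 0, and their median change was 0.094. The median was 0.084 for 579 from 11 to 12, and -0.0024 for 125 from 13 to 15. After quantile normalization again the 4 H2B sets of 15 genes moved to a median of -0.19 and all 4 were called, and H2az1 moved to -0.40. The part of this brightness-dependent shift in the histone values was not tested.

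**Figure D4:**
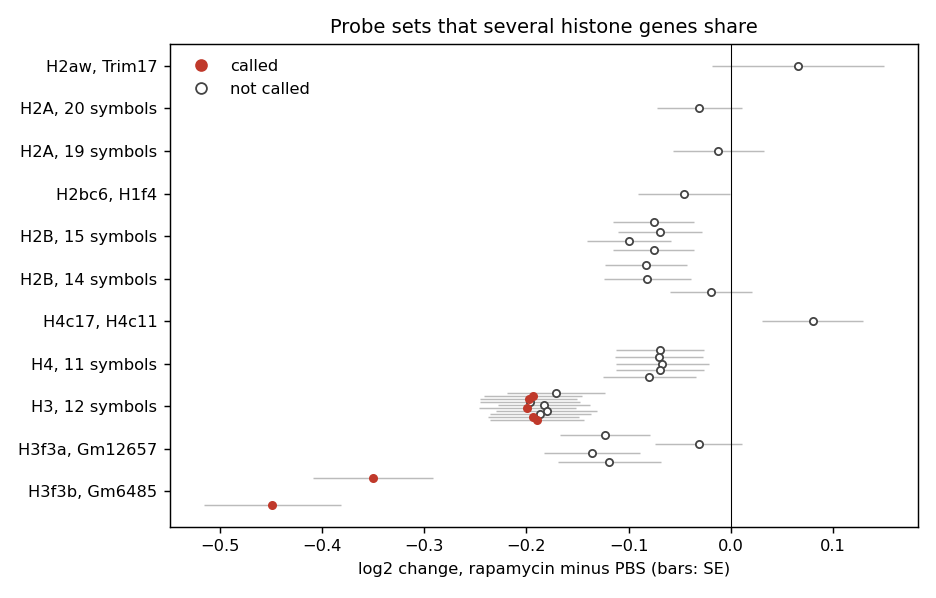
Log2 change between rapamycin and PBS (x axis) with limma's standard error for the 33 probe sets that several histone genes share, by the combination of genes they list. On the deposited values, the 10 sets of cluster H3 lie together between -0.20 and -0.17. Those of H3f3b lie at -0.35 and -0.45, and those of H2A, H2B and H4 nearer to 0.

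Genes that supply and place histones were taken from fixed lists, which were drawn up with earlier results of these data known. Of 21 tested genes of histone gene transcription and histone mRNA processing, 3 fell and 0 rose, at a median of -0.022, beside 6.92% called lower, 4.42% called higher and a median of -0.017 over all genes. Slbp, which binds the stem-loop of replication-dependent histone mRNAs, stood at 8.90, 8.80 and 8.82 with PBS and at 8.59, 8.49 and 8.41 with rapamycin. All rapamycin values were lower, at -0.34 ± 0.06 (SE) and limma's adjusted p of 0.0173. Cpsf2, a subunit of the complex that cuts these mRNAs, stood at 7.96, 7.89 and 7.92 with PBS and at 7.60, 7.66 and 7.65 with rapamycin, at -0.28 ± 0.04 (limma adjusted p 0.0114). Cdk2, the S phase kinase that phosphorylates the histone gene activator NPAT, fell by 0.18 ± 0.04. Npat itself was at -0.02 ± 0.08 and Casp8ap2, a scaffold of histone mRNA processing, at 0.02 ± 0.05.

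Of 25 tested histone chaperones and deposition factors 2 fell and 1 rose, which is 8% and 4%, near the 6.92% and 4.42% of all genes, at a median of -0.036. Anp32e, which removes H2A.Z from nucleosomes, stood at 7.42, 7.56 and 7.42 with PBS and at 6.64, 6.77 and 7.24 with rapamycin. The groups did not overlap, rapamycin replicate 3 lay nearest to PBS, and the change was -0.58 ± 0.14 (SE) with limma's adjusted p of 0.0443. Chaf1a, the large subunit of the assembly factor that places cluster H3 and H4 on new DNA, went from 7.11, 7.11 and 7.29 to 6.90, 6.78 and 6.77, at -0.36 ± 0.07 (limma adjusted p 0.0211). Ubn2, a ubinuclein of the HIRA complex that places the H3f3 histones, rose from 7.79, 7.52 and 7.62 to 8.01, 8.04 and 7.96, at 0.36 ± 0.07 (limma adjusted p 0.0243). Srcap and Vps72, which take part in placing H2A.Z, were at 0.17 ± 0.05 and -0.17 ± 0.05, neither past the test (limma adjusted p 0.0811 and 0.0887). Hira was at -0.13 ± 0.07, Daxx at -0.10 ± 0.05 and Asf1b at 0.01 ± 0.07. Of the 6 calls in both lists, 2 were made without PBS replicate 1 (Cpsf2 and Ubn2) and 0 without PBS replicate 2. Cpsf2 alone kept its call in the fits that lacked PBS replicate 3 or rapamycin replicate 2. Cpsf2 and Slbp were called without rapamycin replicate 1, and 4 genes, Cpsf2, Slbp, Anp32e and Ubn2, without rapamycin replicate 3.

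Of 32 tested S phase genes 5 fell and 0 rose, at a median of -0.096, with 25 below 0, beside 6.92% called lower, 4.42% called higher and 55.6% below 0 over all genes. They were Prim1, Rrm2, Mcm3, Rpa2 and Mcm5, at -0.35, -0.27, -0.26, -0.21 and -0.19. Of 18 tested mitosis genes Tpx2 fell, at -0.22 ± 0.04 (SE), and the median was 0.027. Cenpa, the histone H3 of centromeres, was at -0.03 ± 0.07. Of the 5 S phase calls 0 were made without PBS replicate 1, 2 or 3, or rapamycin replicate 1 or 2, and 3 without rapamycin replicate 3. Without rapamycin replicate 2, Pola2 was called higher. Of fits with an array left out, those lacking PBS replicate 1 or rapamycin replicate 3 called Tpx2, and the latter also called Ccna2 lower.

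**Figure D5:**
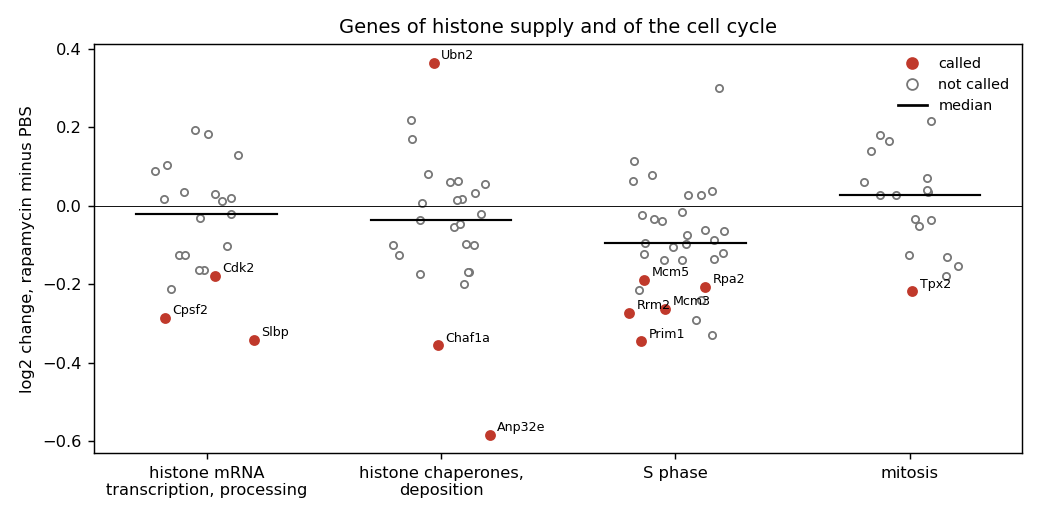
Log2 change between rapamycin and PBS (y axis) of each tested gene in 4 lists, with called genes filled and named and the list median as a bar. Anp32e at -0.58 and Ubn2 at 0.36 are the ends of the range, and the medians lie between -0.096 and 0.027.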

How the data were processed

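Total RNA of 6 mice was read on 1 array each. The authors deposited 1 log2 value per probe set and array, made with RMA in Affymetrix Expression Console per the submitters' processing notes; no version is stated. As a method RMA corrects background, equalises the arrays' distributions and summarises probes, so a change of most genes in 1 direction would be removed. Array medians lay between 5.42 and 5.46. Arrays have no sequencing depth, and batches could not be tested because scan dates were not used here.

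Names came from GEO's platform annotation, with 21789 of 35556 listing 1 gene, 1621 several and 12146 none, and matched by Entrez ID to RefSeq names of GRCm38.p6. For a gene with several probe sets the one with the highest mean over the 6 arrays was taken. Of 19938 genes, 5973 under the 30th percentile (log2 4.72) were set aside and 13965 tested. Shared histone probe sets were tested in a fit of all 23077 probe sets above it. Groups were compared with limma 3.58.1 (lmFit, eBayes, 2-sided, Benjamini-Hochberg) in R 4.3.3. The fit was tested on simulated data. Of 169 list entries 156 were matched. The members and lists were chosen with earlier results of these data known. Values on every array are given for called members, tested variants and the 2 brightest cluster genes per family; H4c3, H4f16 and single values of other members were added after seeing the data. From the lists, called genes are named; Npat, Casp8ap2, Srcap, Vps72, Hira, Daxx, Asf1b, Cenpa and Pola2 were added. Replicate numbers were not taken as pairs of mice. Plots used matplotlib 3.10.9 (Python 3.11.15).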

Additional observations from a re-analysis of the deposited data

How the results depend on the processing

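The 1 called variant, H2az1, kept its call under each alternative that used all 6 arrays, and 0 variants were called higher under any. With an array left out the count of variants called lower ran from 0 to 1. Cluster genes called lower, 0 in all, became 2 after quantile normalization again, 1 with the array medians aligned, and 0 to 1 with an array left out. Those called higher, also 0, became 1 with the 50th percentile filter, an intensity trend, array weights or the tested genes' medians aligned, the last chosen after seeing the data. The 7 shared probe sets called lower became 3 with no filter, 12 with array medians aligned or an intensity trend, 4 with array weights, 2 with tested genes' medians aligned, 1 with 1 mean per combination of genes, and 0 to 2 with an array left out. The 6 supply genes became 0 to 4, and the 6 of S phase and mitosis 0 to 5, with an array left out, and the latter 10 with the 50th percentile filter. The median of cluster genes was -0.061 after quantile normalization again, -0.049 with array medians aligned, 0.0064 with tested genes' medians aligned, and -0.029 to -0.0016 with an array left out. That of variants was -0.038, -0.038 and 0.017 under the same settings, and -0.038 to 0.027 with an array left out. The cause of these shifts was not tested.

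With the replicate number as a block, 2 shared probe sets were called lower in place of 7, with 0 of the 10 cluster H3 sets among them, and the other counts of calls stayed within 1.5 times. Deviations of same-numbered arrays correlated at 0.20, -0.04 and 0.02, so the numbers were not taken as pairs. Of 42 genes, 4 were too dim to test.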
